A study of Mus musculus with 6 samples.

Results

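The small leucine-rich proteoglycans (SLRPs) were examined here in mouse embryonic fibroblasts with and without a hairpin against ARF. The family was taken as a given list of 10 genes, Dcn, Bgn, Aspn, Lum, Kera, Fmod, Prelp, Omd, Ogn and Podn, matched by gene symbol among the 54752 genes of the count table. The cells are fibroblasts grown out of mouse embryos, of a p53-deleted line by its label. Lentivirus brought in either a short hairpin RNA against ARF (shARF, 3 libraries) or a control hairpin (shNT, 3 libraries). Loss of p53 was thus shared by both groups, although the genotype label reads ARF knockdown for shARF and WT for shNT, and the titles of all 6 samples carry the tag neo. The labels give no embryo age, no strain and no word on whether the line is clonal. The titles call the replicates biological ("biol rep"), but no label says that they came from separate infections. The p-values therefore describe the spread between these libraries, which may be technical.

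SLRPs are secreted proteins built around a horseshoe of leucine-rich repeats, most of which lie on the surface of collagen fibrils and limit how fibrils grow and fuse. Many carry chondroitin, dermatan or keratan sulfate chains on their protein core, and several bind growth factors such as TGF-beta or cell surface receptors. The family is sorted into classes by the spacing of cysteines in front of the repeats: decorin, biglycan and asporin form class I, lumican, keratocan, fibromodulin, PRELP and osteomodulin class II, osteoglycin belongs to class III and podocan to class V. Fibroblasts, tendon cells, osteoblasts and corneal keratocytes are their best known sources.

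The libraries held 45226639 to 46305826 counts in shARF and 40261944 to 47023082 in shNT, and levels are given as CPM, counts scaled to a common library size with TMM factors. Cdkn2a, the gene that encodes ARF, averaged 102 ± 5.57 CPM in shARF and 224 ± 6.91 CPM in shNT (SD, n = 3 each, log2 fold change -1.14, adjusted p = 2.52e-06, edgeR). Counts are per gene, so the transcripts of Cdkn2a were not told apart. The groups also differed in genes that mark embryo sex and position along the body: Xist was at 40.7 to 54.3 CPM in shARF and 360.2 to 413 CPM in shNT, the Y-linked Ddx3y at 80.7 to 88.9 and 22.8 to 26.0 CPM, and among HOX genes, 17 rose and 15 fell out of 33 in the test. The labels do not say whether both groups came from the same embryos. An effect of the hairpin and a difference of origin cannot be told apart in any shARF against shNT value given here. A gene was called at an adjusted p under 0.05 (edgeR quasi-likelihood test, Benjamini-Hochberg over 17128 genes). By that rule 56.4% of all genes were called, 28.8% higher and 27.7% lower in shARF, so that a call by itself sets no gene apart. With library sizes alone as the scaling, the split was 4023 higher and 5874 lower in place of 4930 and 4737.

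Of the 10 SLRP genes, 3 were higher (Aspn, Bgn, Ogn) and 5 lower (Dcn, Kera, Omd, Podn, Prelp) in shARF, and 2 did not pass the test (Fmod, Lum). Dcn fell 4.36-fold and Aspn rose 2.19-fold, while the most abundant members, Ogn and Bgn, rose by ratios of only 1.12 and 1.14. All 10 passed the filter on low counts, Kera only through its counts in shNT. Of the 9 whose counts passed in both groups, 7 were called, where 56.4% of all genes tested were. The median log2 fold change over the 10 was -0.63, against -0.01 over all genes tested. A refit with at least 1 CPM in 3 libraries, which drops Kera, gave -0.38 over the 9 left and -5.68e-04 over all its genes. That refit called 7 of the 9, and 64.7% of all its genes. The median size without regard to sign was 1.00 in the main fit, Kera included, against 0.34. For 9 members, all but Lum, every library of one group lay beyond those of the other, as it did for 64.6% of all genes tested. In bulk RNA, fewer cells that express a gene and less RNA per cell cannot be told apart.

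**Figure D1:**
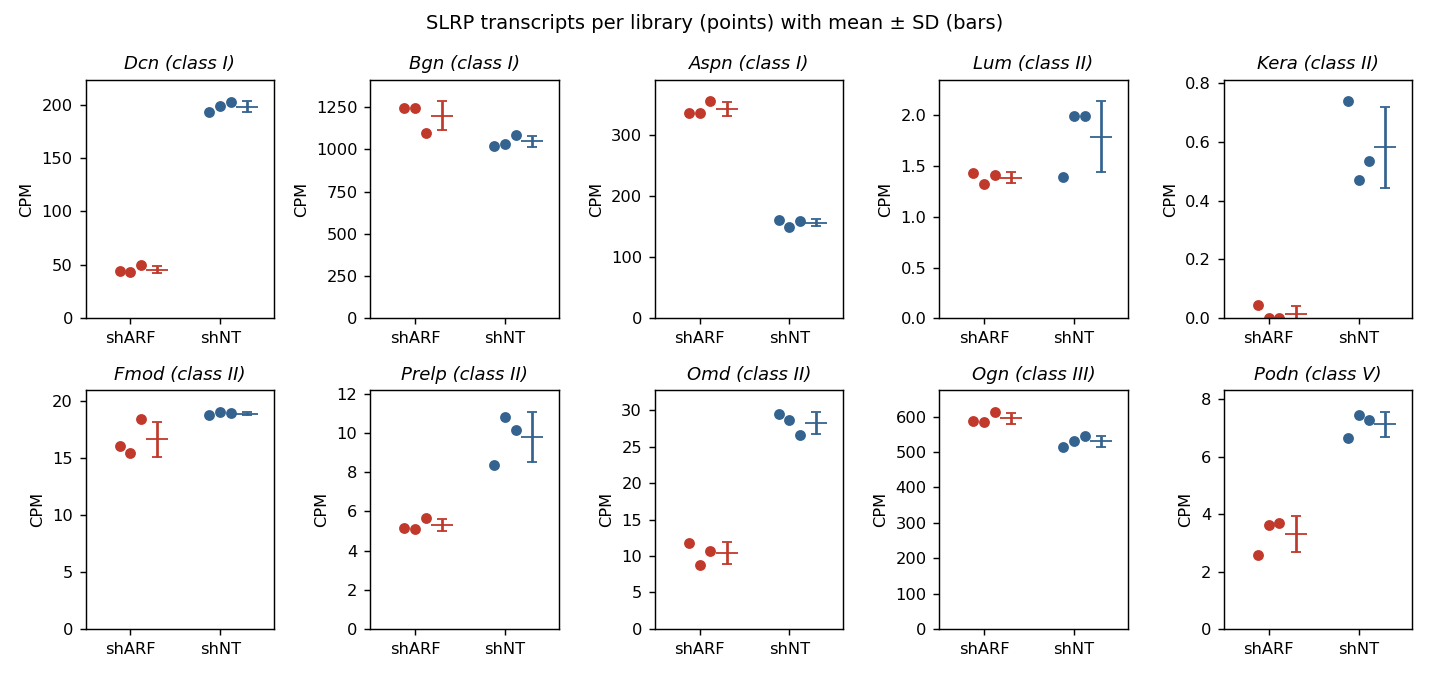
CPM of the 10 SLRP genes in each library, shARF in red and shNT in blue, with the mean and SD over 3 libraries beside the points; each panel has its own linear axis from 0. Dcn lay between 43.1 and 49.5 CPM in shARF, below the 193 to 203 CPM of shNT, while Aspn lay between 336 and 355 CPM in shARF, above 149 to 160.4 CPM in shNT.

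Class I held both a fall and a rise of more than 2-fold. Dcn encodes decorin, which carries a chondroitin or dermatan sulfate chain, binds collagen fibrils and sequesters TGF-beta. It was at 43.8, 43.1 and 49.5 CPM in the shARF libraries and at 193, 199 and 203 CPM in the shNT libraries. Every shARF library lay far under every shNT library. Dcn averaged 45.5 ± 3.55 CPM in shARF and 198 ± 5.00 CPM in shNT (SD, n = 3 each), a log2 fold change of -2.12 (SE 0.06, adjusted p = 5.48e-07), which is 4.36-fold lower. Of all genes tested, 5.32% had a change at least as large in either direction.

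Aspn encodes asporin, a close relative of decorin with a run of aspartates in place of the chain attachment site, which can bind the same collagen surface. Its CPM were 336, 336 and 355 in shARF, against 160.4, 149 and 159 in shNT. No shNT library came near the shARF values. Aspn thus rose by 1.13 on the log2 scale (SE 0.04, adjusted p = 1.13e-06), or 2.19-fold with a 95% interval of 2.06 to 2.33. Set against each other per kilobase of exon, Aspn stood at 17.8 to 19.3 times Dcn in the shARF libraries and at 1.86 to 2.06 times Dcn in the shNT libraries. By CPM not divided by length the ratios were 7.16 to 7.79 in shARF and 0.750 to 0.832 in shNT, so that the order of Aspn and Dcn in shNT rests on the length correction. This ratio was chosen after the values were seen and was not tested.

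Bgn encodes biglycan, the closest relative of decorin, which also signals through Toll-like receptors. It was at 1248, 1248 and 1099 CPM in shARF and at 1023, 1035 and 1083 CPM in shNT. The groups were apart only narrowly, since shARF replicate 3 lay just above the highest shNT library. The log2 fold change of 0.20 (SE 0.05) passed the test (adjusted p = 0.0175), while the exact permutation test (two-sided) stood at p = 0.1, its lower limit with 3 libraries a group. The call was lost with library sizes alone (0.11, adjusted p = 0.119) and without shARF replicate 1 or 2 or shNT replicate 1 or 2 (adjusted p 0.0552 to 0.0615); all alternatives together spanned 8.79e-04 to 0.119. Bgn lies on chromosome X, where 587 tested genes had a median log2 fold change of -0.14 and where Xist, as above, was lower in shARF. Relative to that median Bgn was higher by 0.33.

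The class II genes, whose products mostly carry keratan sulfate, were lower or did not pass the test. Omd encodes osteomodulin (osteoadherin), found mainly in mineralized matrix. It was at 11.8, 8.78 and 10.7 CPM in shARF, against 29.5, 28.7 and 26.6 CPM in shNT, a log2 fold change of -1.44 (SE 0.11, adjusted p = 4.52e-05). The lowest shNT library held more than double the highest shARF library. Prelp encodes a heparin-binding SLRP thought to anchor basement membranes to the underlying matrix. Its CPM were 5.13, 5.11 and 5.66 in shARF and 8.38, 10.8 and 10.2 in shNT, which is 1.85-fold lower (log2 fold change -0.89, SE 0.11, adjusted p = 5.08e-04).

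Kera encodes keratocan, a SLRP of the cornea. It was close to absent in either group, with 2 counts over the shARF libraries, all in replicate 1, and 79 counts over the shNT libraries. That is 0.0446, 0 and 0 CPM in shARF and 0.738, 0.472 and 0.534 CPM in shNT. From the summed counts, shARF held 2.58% of the shNT level, with a 95% interval of 0.307 to 9.63% (exact, Clopper-Pearson) that covers counting error only. The fitted log2 fold change was -5.04 (SE 0.73, adjusted p = 8.08e-04) and went to -7.71 without shARF replicate 1, where no shARF count was left and the fitted size depends on the prior count.

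Fmod and Lum did not pass the test. Fmod encodes fibromodulin, which steers collagen fibril assembly and crosslinking and is abundant in tendon. It was at 16.0, 15.5 and 18.4 CPM in shARF and at 18.7, 19.01 and 18.9 CPM in shNT, so the groups were apart but shARF replicate 3 nearly met them. The log2 fold change was -0.18 (adjusted p = 0.0698), with a 95% interval of the ratio from 0.780 to 0.993. It was called lower without shARF replicate 3 (-0.26, adjusted p = 0.00916), with upper quartile scaling (-0.21, 0.0388) and with library sizes alone (-0.27, 0.0167); all alternatives together spanned 0.00916 to 0.201. Lum encodes lumican, the keratan sulfate proteoglycan that keeps corneal collagen evenly spaced. It was low, at 1.43, 1.32 and 1.41 CPM in shARF and 1.39, 1.99 and 1.99 CPM in shNT. The groups overlapped through shNT replicate 1, without which Lum was called (-0.53, adjusted p = 0.0203, within a range of 0.0203 to 0.33). With all libraries the log2 fold change was -0.37 (adjusted p = 0.119) and the interval of the ratio ran from 0.579 to 1.04, at a depth of 58 to 97 counts per library.

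Ogn, the class III gene, encodes osteoglycin (mimecan), a small collagen-binding SLRP. It was at 588, 585 and 613 CPM in shARF and at 515, 531 and 545 CPM in shNT. All shARF libraries lay above all shNT libraries, by a small margin (ratio 1.12, 95% interval 1.07 to 1.18; log2 fold change 0.17, SE 0.03, adjusted p = 0.00253). With library sizes alone it was 0.08 (adjusted p = 0.0463, within 1.40e-05 to 0.0463 over the alternatives). Podn, of class V, encodes podocan, a collagen-binding SLRP first described in kidney. It was at 2.57, 3.63 and 3.69 CPM in shARF and 6.65, 7.45 and 7.29 CPM in shNT, which is 2.16-fold lower (log2 fold change -1.11, SE 0.15, adjusted p = 6.67e-04). On chromosome 4, where Podn lies, 989 tested genes had a median log2 fold change of 0.19, opposite in sign to that of Podn.

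**Figure D2:**
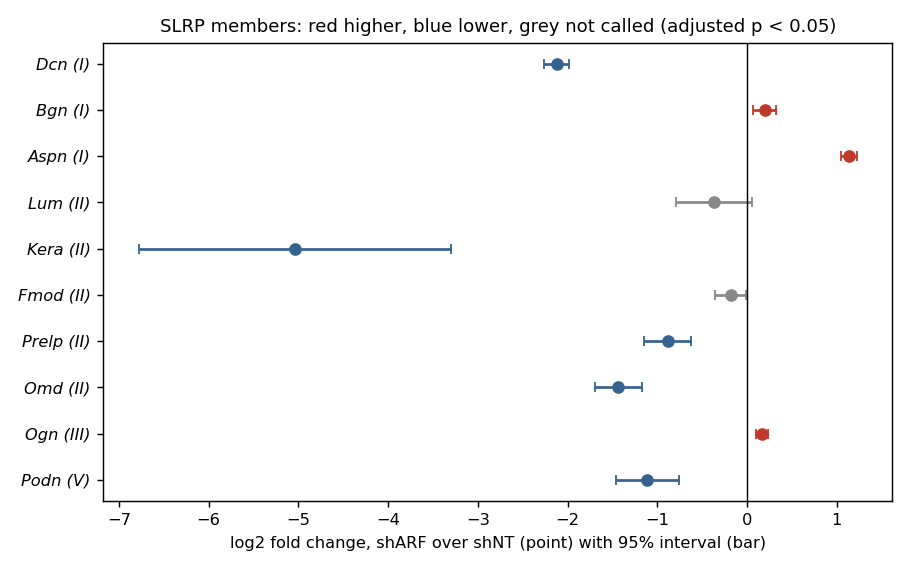
Log2 fold change of each SLRP gene, shARF over shNT, with the 95% interval of the fit; class in brackets, red for called higher, blue for called lower and grey for not called. Dcn (-2.12) and Aspn (1.13), both of class I, lie on opposite sides of 0, and no class II gene lies above it.

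Compared per kilobase of merged exons, the family was dominated by the same 3 genes in either group. In shARF the order was Ogn (232 ± 5.99 CPM per kb), Bgn (196 ± 14.1), Aspn (145 ± 4.67), Dcn (7.79 ± 0.608), Fmod (5.03 ± 0.469), Omd (4.64 ± 0.673), Prelp (1.47 ± 0.0861), Podn (0.772 ± 0.148), Lum (0.567 ± 0.0229) and Kera (0.00652 ± 0.0113; SD, n = 3). Only Fmod and Omd overlapped between neighbours in that order. In shNT it was Ogn (207 ± 5.87 CPM per kb), Bgn (172 ± 5.25), Aspn (66.3 ± 2.56), Dcn (33.9 ± 0.856), Omd (12.6 ± 0.668), Fmod (5.71 ± 0.0410), Prelp (2.71 ± 0.352), Podn (1.67 ± 0.0999), Lum (0.732 ± 0.142) and Kera (0.255 ± 0.0611), with no overlap between neighbours. The place of Ogn above Bgn rests on the length used: by the longest transcript, Ogn stood at 0.519 of Bgn in shARF and 0.527 in shNT, in place of 1.19 and 1.20 by merged exons.

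The summed level of the 10 genes was 594 ± 2.53 CPM per kb in shARF and 502 ± 11.7 in shNT (SD, n = 3 each). Within that sum, Aspn held 24.5 ± 0.876% in shARF and 13.2 ± 0.555% in shNT. Dcn held 1.31 ± 0.107% in shARF and 6.75 ± 0.0747% in shNT. The share of Ogn was 39.1 ± 1.14% in shARF and 41.2 ± 0.404% in shNT, and that of Bgn 33.1 ± 2.26% and 34.2 ± 0.251%. Not divided by length, the summed CPM of the family was 2156 to 2253 in shARF and 1956 to 2055 in shNT. The Aspn share was thus higher and the Dcn share lower in all shARF libraries, in a sum that was not lower.

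**Figure D3:**
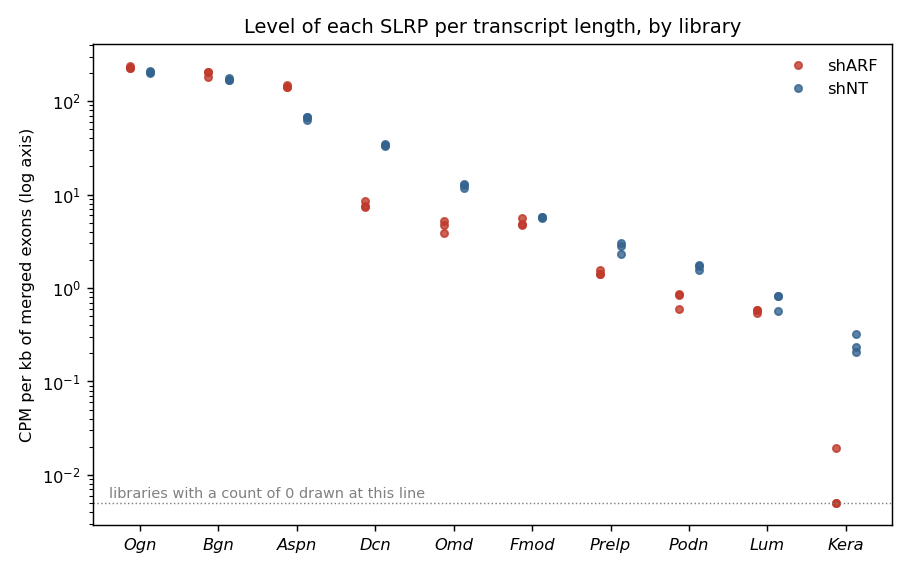
CPM per kilobase of merged exons for each SLRP gene in each library, on a log axis, ordered by the shNT mean, shARF in red left of shNT in blue; the 2 shARF libraries with no Kera count are drawn at the dotted line. Ogn, Bgn and Aspn lie above 60 in all libraries, and Dcn lies at 7.38 to 8.49 in shARF and 33.0 to 34.7 in shNT.

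Most of the family sits in 3 tandem clusters, and in the cluster around Ogn neighbouring genes had fold changes of opposite sign. On chromosome 13 (GRCm38), Ecm2 (49504810 to 49532789), Aspn (49544443 to 49567565), Omd (49582462 to 49592822) and Ogn (49608046 to 49624501) follow one another on the plus strand within 119.7 kb. Ecm2, which encodes a matrix protein with related leucine-rich repeats, was at 2.52, 2.60 and 3.02 CPM in shARF and 0.717, 1.03 and 0.923 CPM in shNT (log2 fold change 1.61, adjusted p = 2.21e-04). Along the cluster the log2 fold changes were therefore 1.61, 1.13, -1.44 and 0.17, while the 736 tested genes of chromosome 13 had a median of 0.03. Ecm2, Aspn, Omd and Ogn all lie inside Cenpp, a centromere protein gene on the minus strand. Cenpp was at 9.50 ± 0.229 CPM in shARF and 11.8 ± 0.941 CPM in shNT (-0.31, adjusted p = 0.0095). Exons of Cenpp share 7 bases with Aspn and none with Omd or Ogn, and bases shared with Ecm2 were not counted. No source used here says whether the counting used strand.

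Promoters of these adjacent genes are shown because their fold changes differ in sign, as the 250 bases before the RefSeq start on GRCm38.p6, plus strand, with matches to any of the motifs below in capitals. The windows are chr13:49544193-49544442 for Aspn, chr13:49582212-49582461 for Omd and chr13:49607765-49608014 for Ogn.
Aspn: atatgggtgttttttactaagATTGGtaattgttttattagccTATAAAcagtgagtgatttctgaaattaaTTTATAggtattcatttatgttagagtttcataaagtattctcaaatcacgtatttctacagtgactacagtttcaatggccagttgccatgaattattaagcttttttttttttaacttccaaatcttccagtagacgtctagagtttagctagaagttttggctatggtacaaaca
Omd: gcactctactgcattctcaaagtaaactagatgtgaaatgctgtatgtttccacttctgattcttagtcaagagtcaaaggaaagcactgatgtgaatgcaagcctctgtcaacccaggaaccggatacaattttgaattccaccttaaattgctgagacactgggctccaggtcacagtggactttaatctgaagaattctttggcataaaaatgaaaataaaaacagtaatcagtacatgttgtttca
Ogn: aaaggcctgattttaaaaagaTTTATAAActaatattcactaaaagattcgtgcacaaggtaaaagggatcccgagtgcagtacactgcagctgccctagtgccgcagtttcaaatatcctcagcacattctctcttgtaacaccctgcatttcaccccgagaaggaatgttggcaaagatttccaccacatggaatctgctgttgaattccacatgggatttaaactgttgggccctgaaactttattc

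Both strands were searched for 4 motifs in these and in 32851 RefSeq promoter windows of the same length. The TATA box TATAAA is in 12.4% of all windows, the AP-1 site TGACTCA in 4.46%, the GC box GGGCGG in 32.7% and the CCAAT box in 33.8%. Aspn has TATAAA 207 bases before the start and, on the reverse strand, 178 bases before it, and a CCAAT box on the reverse strand at 229. Ogn has TATAAA on either strand at 227 and 229, where the matches overlap. Omd has none of the motifs, and TGACTCA is in none of the 9 windows found for 8 of the SLRP genes (Dcn and Lum were not matched). The windows of Aspn, Omd and Ogn hold 30%, 38.4% and 42% G and C, against a median of 52.4% over all windows and 64.4% for Bgn. A match of letters is a description and not a site of binding.

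On chromosome 10, Dcn (97479609 to 97518143), Lum (97565128 to 97572703), Kera (97606879 to 97613692) and Epyc (97644068 to 97682454) lie on the plus strand within 203 kb. Dcn and Kera were lower and Lum was not called, where the 808 tested genes of the chromosome had a median of 0.01. Epyc, which encodes epiphycan of growth plate cartilage, was under the filter, with 4 to 8 counts per shARF library and 2 to 4 per shNT library. On chromosome 1, Optc (133897199 to 133907999) and Prelp (133910304 to 133921414), on the minus strand, and Fmod (134037254 to 134048277), on the plus strand, lie within 151 kb, and the 1056 tested genes of the chromosome had a median of -0.06. Optc, which encodes the eye protein opticin, was at 1.83, 2.03 and 1.90 CPM in shARF and 2.61, 2.63 and 2.48 CPM in shNT (-0.42, adjusted p = 0.0119). Prelp shares 350 exonic bases with the antisense gene Gm15851, which had no count in any library. Bgn (chromosome X, 73483602 to 73495933, plus strand) and Podn (chromosome 4, 108014791 to 108096445, minus strand) lie alone. Podn overlaps Scp2, a lipid carrier gene on the same strand, without shared exonic bases. Scp2 was at 42.3 ± 0.300 CPM in shARF and 64.8 ± 1.25 CPM in shNT (-0.62, adjusted p = 1.0e-05).

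**Figure D4:**
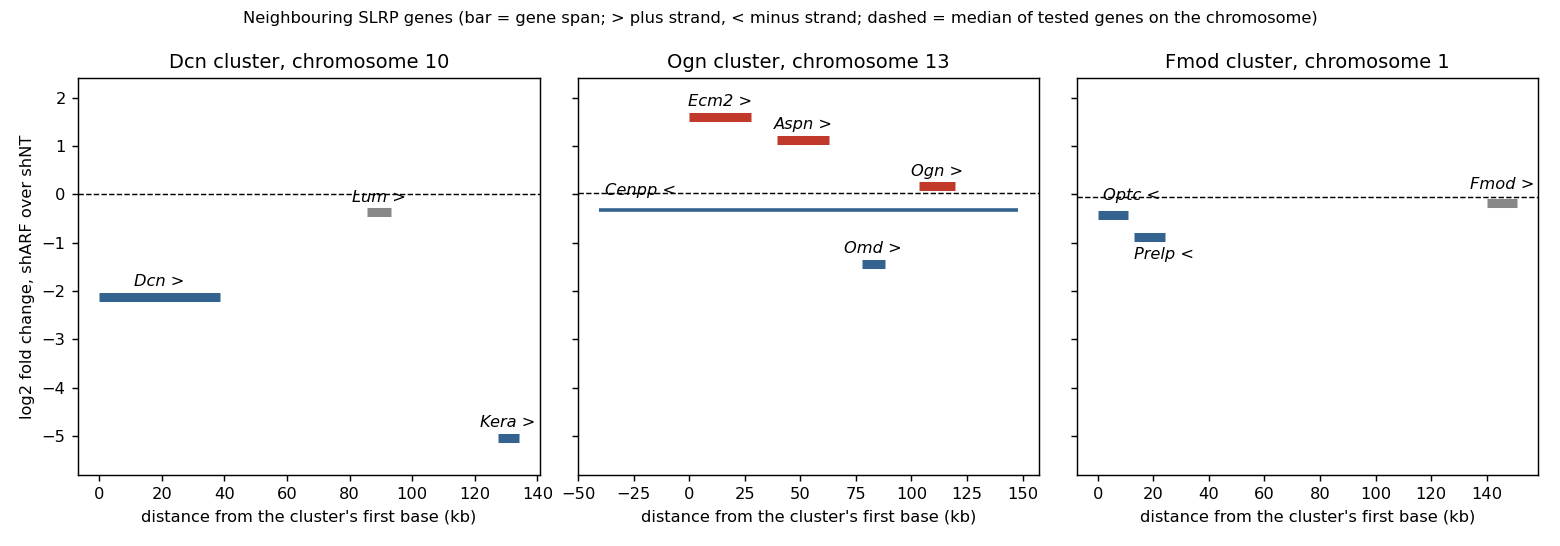
Log2 fold change of the tested genes in the 3 SLRP clusters, shARF over shNT, against distance in kb from the first base of the cluster; each bar spans a gene, arrows give its strand, and the dashed line is the median of tested genes on that chromosome. In the Ogn cluster, Ecm2 (1.61) and Aspn (1.13) lie above the line and Omd (-1.44) below it; Epyc was not tested and is not drawn.

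Among the 8 other genes of the wider family, 5 were tested, of which 2 were higher (Ecm2 and Tsku), 2 lower (Optc and Podnl1) and 1 not called (Chadl). Over all genes tested, 28.8% were called higher and 27.7% lower. Podnl1, the class V relative of Podn, averaged 10.2 ± 0.779 CPM in shARF and 22.1 ± 0.342 CPM in shNT (-1.11, SE 0.07), beside -1.11 for Podn. Tsku, which encodes the secreted signalling modulator tsukushi, averaged 57.6 ± 3.20 CPM in shARF and 32.6 ± 8.17 CPM in shNT (0.82, adjusted p = 0.00694). Chad, of cartilage, had no count, and Nyx had 2 counts in all.

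The enzymes that build the chains were called in both directions, as all genes tested were (28.8% higher and 27.7% lower). Of 15 genes for the linker and sugar supply, all tested, 6 were higher and 4 lower (median log2 fold change 0.08). Xylt1, the xylosyltransferase that starts the chain on the core protein, was at 30.2 ± 0.232 CPM in shARF and 18.5 ± 1.05 CPM in shNT (0.71). Slc35b2, the Golgi carrier of the sulfate donor, averaged 45.4 ± 0.924 CPM in shARF and 70.8 ± 4.72 CPM in shNT (-0.64), and Ugdh, which makes UDP-glucuronate, 159 ± 2.28 and 193 ± 3.05 CPM (-0.28). Of 15 tested genes for chondroitin and dermatan sulfate, 5 were higher and 5 lower (median 0.05). Chst7, a chondroitin 6-sulfotransferase, had the smallest p of that list, with 22.2 ± 1.11 CPM in shARF and 3.47 ± 0.116 CPM in shNT (2.67), followed by Chst15 (5.82 ± 0.261 and 11.9 ± 0.939 CPM, -1.04) and the chain polymerase Chsy1 (163 ± 1.88 and 125 ± 4.43 CPM, 0.38). Of 9 tested genes for keratan sulfate, 5 were higher and 2 lower (median 0.24). St3gal1, a sialyltransferase, was lower (23.1 ± 1.09 CPM in shARF and 97.5 ± 3.06 CPM in shNT, -2.08), and the sulfotransferase Chst2 (0.68) and B4galt4 (0.77) were higher.

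Of the 12 collagens that SLRPs bind, 8 were called higher and 3 lower, where 28.8% and 27.7% of all genes tested were. Their median log2 fold change was 0.33, against -0.01 over all genes tested. Col12a1, a fibril-associated collagen, was at 2262 ± 23.5 CPM in shARF and 1097 ± 31.2 CPM in shNT (1.04), and Col5a2, which seeds type I fibrils, at 2816 ± 14.8 and 1671 ± 62.4 CPM (0.75). Col2a1, the fibrillar collagen of cartilage, was lower (9.04 ± 1.03 CPM in shARF and 120.2 ± 2.19 CPM in shNT, -3.73). Of 8 other extracellular proteoglycans tested, 2 were higher and 5 lower (median -0.50). Among the lower, Spock3 passed the filter on low counts only through shNT (0 to 0.0895 CPM in shARF, 1.52 to 1.74 CPM in shNT). Its call rests on the group where it was high. Acan, the aggrecan gene, was at 1.88 ± 0.234 CPM in shARF and 22.1 ± 0.986 CPM in shNT (-3.56), Vcan (versican) at 1329 ± 33.5 and 1959 ± 43.6 CPM (-0.56), and Hspg2 (perlecan) at 2341 ± 7.13 and 1886 ± 17.2 CPM (0.31).

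Of 19 tested ligands and receptors that SLRP proteins are known to bind, 11 were higher and 4 lower (median 0.32). Over all genes tested, 28.8% were called higher and 27.7% lower. Tgfb3, a TGF-beta ligand, averaged 223 ± 1.25 CPM in shARF and 98.0 ± 1.13 CPM in shNT (1.19), Bmp4 45.5 ± 0.666 and 18.9 ± 0.205 CPM (1.27), and Ccn4 (WISP1), a matricellular protein that decorin and biglycan bind, 501 ± 23.4 and 154 ± 0.968 CPM (1.70). The 4 lower were Met (-1.17), Cd14 (-0.44), Lrp1 (-0.29) and Egfr (-0.29). Of 12 tested proteases and enhancers that act on SLRPs or on procollagen, 6 were higher and 3 lower (median 0.44). Among the higher, Mmp13 passed the filter on low counts only through shARF (0.616 to 1.07 CPM in shARF, 0 to 0.0821 CPM in shNT). Its call rests on the group where it was high. Mmp14 was at 465 ± 2.91 CPM in shARF and 219 ± 6.70 CPM in shNT (1.09), the procollagen proteinase enhancer Pcolce2 at 37.4 ± 1.47 and 8.88 ± 0.256 CPM (2.07), and Adamts5 at 676 ± 5.66 and 480 ± 6.65 CPM (0.49). The 3 lower were Adamts1 (-0.71), Mmp2 (-0.62) and Adamts4 (-0.41). The adjusted p of each gene given from these lists was under 0.05.

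**Figure D5:**
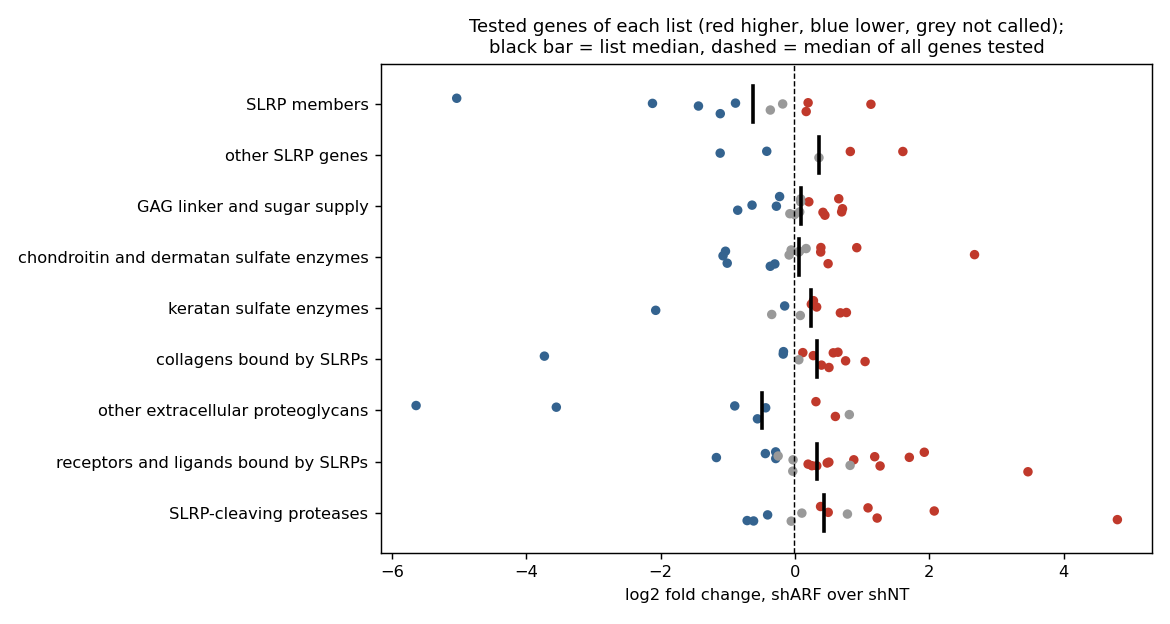
Log2 fold changes, shARF over shNT, of the tested genes in the SLRP family and in 8 lists around it, red for called higher, blue for called lower and grey for not called; the black bar is the median of the list and the dashed line that of all genes tested (-0.01). The SLRP median lies at -0.63 with Kera (-0.38 over the 9 genes left with at least 1 CPM in 3 libraries) and that of the collagens at 0.33.

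Markers of the cell types that are known for SLRPs were called in both directions, where 56.4% of all genes tested were called. All 10 fibroblast markers were detected, at a summed 24139.5 to 24334.8 CPM in shARF and 19189 to 20671 CPM in shNT, with 6 higher and 2 lower. Among these Col1a1 (9360.5 ± 43.0 CPM in shARF and 7123 ± 320.2 CPM in shNT) and Col1a2 (5828 ± 33.9 and 5376 ± 231 CPM) were higher, and Pdgfra, named after its values were seen, was lower (-2.46). Of 6 tendon markers 5 were tested, of which 4 were higher and 1 lower. They summed to 1433 to 1459 CPM in shARF and 799 to 809 CPM in shNT. Tnc made up most of that sum, with 1254 ± 22.9 CPM in shARF and 644 ± 9.92 CPM in shNT. Egr1, also used as a tendon marker, was lower (90.2 ± 3.36 CPM in shARF and 122 ± 3.23 CPM in shNT, -0.43, adjusted p = 8.38e-05). Thbs4 of that list had at most 0.228 CPM. Of 9 cartilage markers 7 were tested, of which 1 was higher and 5 lower. They summed to 103 to 106 CPM in shARF and 296 to 303 CPM in shNT, with Sox9 at 79.2 ± 0.997 and 135 ± 6.11 CPM, and Col9a1 and Matn1 at 0. The sum includes Col2a1 (9.04 CPM in shARF and 120.2 CPM in shNT) and Acan (1.88 and 22.1 CPM), which are also in the lists above. The higher marker was Sox6, at 9.32 ± 0.563 CPM in shARF and 1.56 ± 0.136 CPM in shNT (2.57). Of 8 bone markers 5 were tested, of which 1 was higher and 1 lower. They summed to 111 to 138 CPM in shARF and 96.0 to 109.5 CPM in shNT, with Bglap and Ibsp at 0 and Runx2 not called.

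Of 7 smooth muscle markers 1 was higher and 5 lower (1348 to 1434 CPM in shARF and 1451 to 1500 CPM in shNT, summed), with Acta2 not called and Tagln lower (-0.20). Of those called, Myh11 passed the filter on low counts only through shNT and Des only through shARF. Of 6 mesothelial markers 5 were higher and 1 lower (95.8 to 98.9 CPM in shARF and 82.4 to 85.7 CPM in shNT, summed). All 5 were near 0 in shNT and passed the filter only through shARF, so their calls rest on the group where they were high. Over all genes tested, 28.8% were called higher and 27.7% lower. Upk3b lay between 11.6 and 12.3 CPM in shARF and between 0 and 0.0411 CPM in shNT, while Msln was at 54.4 ± 1.37 and 84.2 ± 1.63 CPM, and Lrrn4, Upk1b and Muc16 were at 0 in all shNT libraries. Epithelial (5.30 to 5.68 CPM in shARF and 15.3 to 17.5 CPM in shNT), endothelial (0 to 0.201 and 2.16 to 2.67 CPM) and leukocyte markers (at most 2.03 CPM in shARF and 7.47 CPM in shNT) were low. In the epithelial list 4 of 7 were tested, of which 1 was higher (Cdh1) and 1 lower (Krt18), with Esrp1 at 0. In the endothelial list 1 of 5 was tested and was lower (Tek), Pecam1 was not tested, and Cdh5 and Tie1 were at 0. In the leukocyte list 2 of 6 were tested and both were lower (Csf1r and Cd68), with Cd3e at 0. Krt18, Tek and Csf1r passed the filter on low counts only through shNT, so their calls rest on the group where they were high. The part of these markers in the SLRP differences was not tested.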

How the data were processed

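Raw counts per gene were deposited by the authors as 1 table, and the libraries were stranded and rRNA-depleted, per the labels' protocols. Tools listed by the submitters' processing notes, without role or order, are HISAT2 2.1.0, StringTie 1.3.2, Trim Galore 0.4.1, DESeq2 1.34.0, Picard 2.13.2 and SAMtools 0.1.19, with the build GRCm38. Strand setting, annotation release and duplicate removal are unknown: no source used here gives them. Columns were matched to samples on group and replicate number, since the index number of the shARF columns differs from the titles, and 6 further columns match no sample and were not used.

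Gene IDs were joined to GENCODE M21 without version (54723 of 54752). The main test was edgeR 4.0.16 in R 4.3.3 (glmQLFit, glmQLFTest) with group as the sole term, TMM scaling and default filterByExpr settings (a count of at least 10, a total of at least 15), which left 17128 genes. Listed genes low in either group could pass the filter through the other group alone, as Kera did. Fold changes use a prior count of 0.125. Standard errors and 95% intervals were derived from the F statistic. Steps were tried on simulated counts in which few genes changed, unlike these data. That trial cannot speak to scaling or false calls here. Intervals from counts cover counting error only.

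Members and lists were chosen with earlier results of these data known. Named genes were the 10 members, Cdkn2a, the 3 genes with the smallest p of each list, genes overlapping a member or inside a cluster, and the 2 most abundant markers of each cell type, of which 1 is not reported here. Genes named outside that rule were named after their values were seen. These are Pdgfra, Sox6, Spock3, Mmp13, sex-linked genes, markers at or near 0 and the wider SLRP genes not called or not tested. They also include the lower genes given among the ligands, receptors and proteases. Alternatives were DESeq2 1.42.0, limma-voom (limma 3.58.1), other normalizations and filters, a replicate block, fold changes centred on the chromosome, a threshold of 0.01, other lengths and each library left out.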

Additional observations from a re-analysis of the deposited data

How the results depend on the processing

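No SLRP gene changed direction under any alternative that gave it a value, and in 149 of 159 cases it stayed on the same side of the threshold. The threshold of 0.01 reuses the main fit, so direction could not change there, and all alternatives draw on the same libraries. With at least 1 CPM in 3 libraries Kera was not tested. Dcn ranged from -2.21 to -2.08 in log2 fold change and Aspn from 1.04 to 1.15. The exceptions were Bgn, Fmod and Lum. Bgn lost its call with library sizes alone (0.11) and at a threshold of 0.01 (0.20), and over the 6 fits that each leave out a library its log2 fold change was 0.17 to 0.26, with 4 of them not called. Fmod became called with upper quartile scaling (-0.21) and with library sizes alone (-0.27), and ranged from -0.26 to -0.13 with a library left out. Lum ranged from -0.53 to -0.28, called without shNT replicate 1. The number of SLRP genes called was 7 to 9. In the 8 lists around them, the number called moved by at most 2 with DESeq2, library sizes alone or the 1 CPM filter: DESeq2 called 3 in place of 4 other SLRP genes, and library sizes alone called 12 in place of 10 chondroitin and dermatan sulfate genes. With library sizes alone the median log2 fold change of all genes was -0.10 in place of -0.01.

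By the longest transcript, shares of the summed SLRP level in shARF and shNT were 52.8% and 53.6% for Bgn, 27.3% and 28.2% for Ogn, 17.3% and 9.15% for Aspn, and 1.14% and 5.76% for Dcn. By CPM not divided by length they were 54.0% and 52.4%, 26.9% and 26.6%, 15.4% and 7.82%, and 2.05% and 9.91%. The Ogn level was 0.519 and 0.527 of Bgn by the longest transcript.

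Replicate numbers do not pair the libraries: same-numbered libraries had correlations of deviations of -0.09, -0.02 and 0.01. With a replicate block 8913 genes were called in place of 9667, and the same count of 8 SLRP genes, 3 higher and 5 lower. DESeq2 called 9226 of 22434 genes, 41.1%, and 33.7% of 27864 were called with no filter. At 0 to 97 counts per library, Kera and Lum are limited by depth.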
